A study of Mus musculus with 7 samples.

Results

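The genes described are the 10 that encode the platelet-derived growth factor (PDGF), KIT and colony-stimulating factor 1 (CSF1) signalling axes, namely the receptors Pdgfra, Pdgfrb, Kit and Csf1r and the ligands Pdgfa, Pdgfb, Pdgfc, Pdgfd, Kitl and Csf1. They were taken by gene symbol from a table of 55484 genes, and all 10 were found and had enough counts to be among the 16580 genes tested. The table holds RNA-seq counts of 4 libraries of mouse embryonic fibroblasts (MEFs) and 3 libraries of mouse embryonic stem cells (mESCs). MEFs are connective tissue cells cultured from embryos with formed tissues, whereas mESCs are cultured from the embryo before implantation and can form every tissue of the body. Both cell types are of C57/Bl6 background, and no allele or treatment is named for either. Passage, culture medium and the embryo or line of origin are not given in the sources used here. The cell sorting for surface markers that the methods describe belongs to the chromatin libraries of the study and is not stated for these RNA samples. The study calls its RNA samples biological replicates and counts fewer of them for MEFs than the table holds libraries. What was kept separate between them is not given in the sources used here, so p-values measure only the spread between these libraries.

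The receptors PDGFRα, PDGFRβ, KIT and CSF1R are class III receptor tyrosine kinases, which pair when a dimeric ligand binds outside the cell and then phosphorylate each other inside it. The phosphorylated receptors recruit adaptors and enzymes that pass the signal to RAS and MAP kinases, PI3 kinase and AKT, phospholipase C gamma and STAT proteins, and phosphatases and ubiquitin ligases end it. PDGFRα and PDGFRβ are classical receptors of fibroblasts and other mesenchymal cells, for which PDGF is a mitogen. KIT acts in germ cells, melanocytes, mast cells and blood stem cells. CSF1R is the receptor that macrophages depend on for survival and growth. The receptor genes lie in neighbouring pairs that arose by duplication, Pdgfra beside Kit and Pdgfrb beside Csf1r.

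Levels are given in TMM-scaled CPM, that is, counts divided by library size after edgeR's correction for composition and brought to a common total, and libraries are named by their total counts. Values are listed in the order 11.4, 7.31, 9.18 and 6.53 M counts for MEFs and 8.19, 8.06 and 7.46 M for mESCs, where M stands for mega. The floor of detection was set at 3 counts in a library, or 0.288 to 0.477 CPM, and covers counting error only. The 11 fibroblast markers summed to between 23740 and 40830 CPM in MEFs and to between 163 and 185 CPM in mESCs, and all 11 were lower in mESCs. The 10 pluripotency markers summed to between 44.1 and 46.4 CPM in MEFs and to between 3053 and 3358 CPM in mESCs, and 9 of the 9 tested were higher in mESCs. The marker that was not tested, Fut4, was low in both and stood in MEFs at 143% of its mESC level. Both labels therefore matched their markers, with the median fibroblast marker in mESCs at 0.585% of its MEF level and the median pluripotency marker in MEFs at 0.929% of its mESC level.

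Of the 10 genes, 2 were higher and 6 were lower in mESCs, and 2 did not pass the test (quasi-likelihood test of edgeR, p adjusted over all tested genes by the Benjamini-Hochberg method and under 0.05, 4 MEF and 3 mESC libraries). Over all tested genes, 47.9% were called in either direction, 22.8% as higher and 25.0% as lower in mESCs. The higher genes were Kit and Pdgfa. The lower genes were Pdgfra, Pdgfrb, Pdgfc, Pdgfd, Kitl and Csf1, while Pdgfb and Csf1r were not called. The median log2 fold change of the 10 genes, mESC minus MEF, was -1.90, beside 0.04 over all tested genes. For 7 of the 10 the MEF and mESC libraries did not overlap, which was so for 52.1% of all tested genes. In bulk libraries, fewer cells that express a gene and less RNA per cell cannot be told apart, and this holds for every difference given here.

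**Figure D1:**
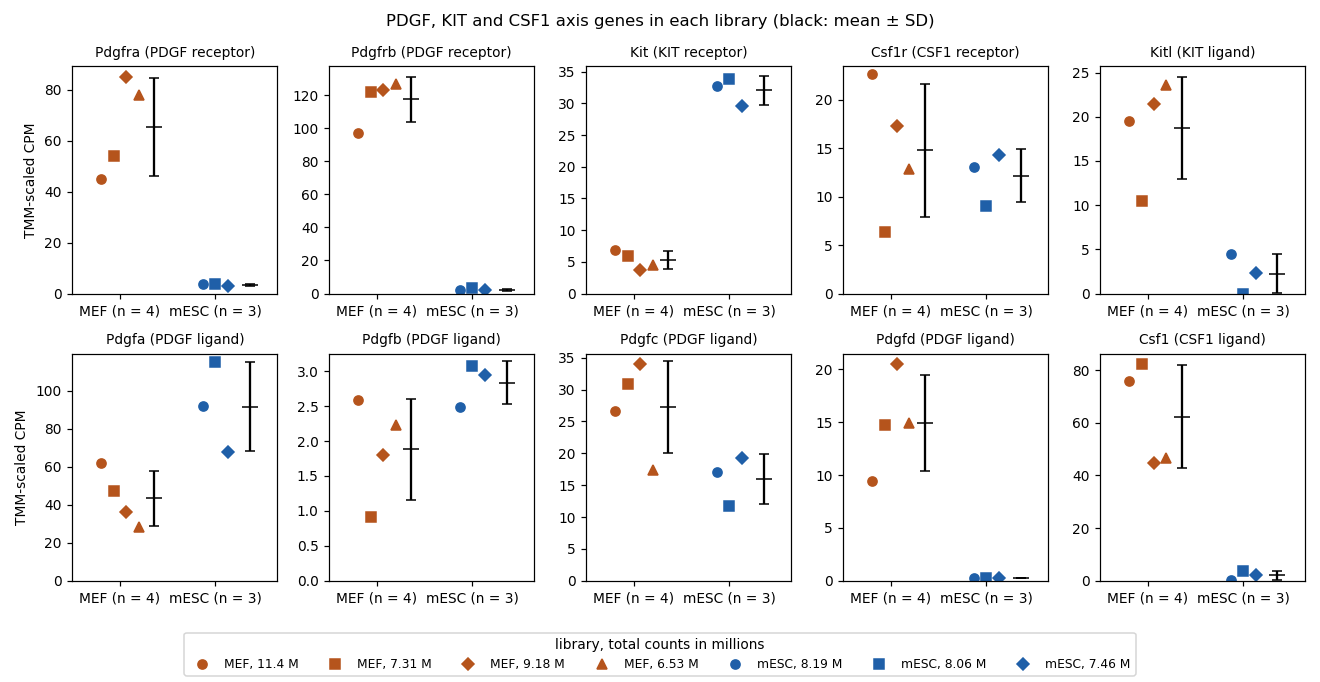
TMM-scaled CPM (vertical axes, linear, each from 0) of the 4 receptors and 6 ligands in each of the 4 MEF libraries (brown) and 3 mESC libraries (blue), with 1 symbol per library and the mean ± SD of each cell type in black. For Kit and Pdgfa all mESC libraries sit above all MEF libraries. Pdgfra, Pdgfrb, Pdgfd, Kitl and Csf1 sit lower in every mESC library, and the libraries of the cell types overlap for Pdgfb, Pdgfc and Csf1r.

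Pdgfra and Kit, the neighbouring receptor genes on chromosome 5, differed in opposite directions. Pdgfra (GRCm38, chromosome 5, 75152292 to 75198215, plus strand) encodes PDGFRα, the receptor that binds the A, B and C chains of PDGF. It had 44.8, 54.0, 85.1 and 77.9 CPM in the MEF libraries and 3.68, 3.75 and 3.07 CPM in the mESC libraries. The lowest MEF library stood above the highest mESC library, and the MEF libraries of 9.18 and 6.53 M counts were the highest. The mean fell from 65.4 ± 19.1 CPM (SD, n = 4) in MEFs to 3.50 ± 0.377 CPM (SD, n = 3) in mESCs, which is 5.35% of the MEF level. On the log2 scale the difference was -4.22, with a standard error of 0.294 (edgeR adjusted p = 1.17e-06). The mESC libraries held 34, 33 and 26 counts of Pdgfra, all above the floor of 3. Primitive endoderm, a cell type of the early embryo that expresses Pdgfra, was followed by 7 markers, which summed to between 83.8 and 145 CPM in MEFs and to 113, 61.8 and 38.3 CPM in the mESC libraries. Of the 3 tested, 1 was higher and 1 was lower in mESCs, and all 7 were above the floor in every mESC library. Most of the MEF sum was Dab2, with a mean of 81.2 CPM, and Gata6, with a mean of 30.1 CPM. Gata4, Sox17, Sox7 and Foxa2, which were not tested, had higher means in mESCs, at 1.66, 3.75, 2.26 and 1.60 CPM. In MEFs, Gata4 and Sox7 had means of 0.19 and 0.17 CPM, and Sox17 and Foxa2 were at 0 in all 4 libraries. The part of primitive endoderm in the Pdgfra level of mESCs was not tested.

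Kit (GRCm38, chromosome 5, 75574916 to 75656722, plus strand), the receptor of stem cell factor, had 6.91, 5.95, 3.71 and 4.45 CPM in the MEF libraries. It had 32.7, 33.9 and 29.5 CPM in the mESC libraries, all above every MEF library. The mean rose from 5.26 ± 1.44 CPM (SD, n = 4) in MEFs to 32.0 ± 2.27 CPM (SD, n = 3) in mESCs, 6.10 times as high. The fitted log2 fold change was 2.60, with 0.261 as its standard error (edgeR adjusted p = 1.63e-05). The 3 mESC libraries lay close together for Kit, with a coefficient of variation (CV, the SD as a percent of the mean) of 7.07%, beside a median CV of 22.5% over all tested genes in mESCs. In MEFs, Kit held between 28 and 72 counts in each library, above the floor. Germ cell markers, which are genes of another cell type that uses KIT, were set beside Kit. Their 6 genes summed to between 7.29 and 13.8 CPM in MEFs and to 68.9, 119 and 86.4 CPM in the mESC libraries. Of the 6, 4 were higher in mESCs. Nanos3 and Prdm1, with log2 fold changes of 1.21 and 0.96, were not called. Over all tested genes 22.8% were called higher and 25.0% lower in mESCs. The 7 melanocyte markers summed to between 17.2 and 23.6 CPM in MEFs and to between 36.1 and 43.3 CPM in mESCs, with 2 of the 3 tested higher in mESCs. The 10 blood progenitor and mast cell markers summed to between 106 and 137 CPM in MEFs and between 11.1 and 17.9 CPM in mESCs. Most of the MEF sum was Runx1 and Cd34, with means of 85.7 and 28.5 CPM. Of the 4 tested, 3 were lower in mESCs. Among those not tested, all at low levels, Gata1, Tal1, Cpa3 and Ms4a2 had higher means in mESCs, and Cd48 and Hbb-bt had lower ones. Cpa3 and Ms4a2, which define mast cells, had at most 2 counts in any library. The part of these cell types in the Kit difference was not tested.

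The stretches just upstream of Pdgfra and Kit are shown because these neighbours were called in opposite directions. They are RefSeq promoter sequences on GRCm38.p6, plus strand, from 250 to 72 bases before the annotated start, written 5′ to 3′ with each CG dinucleotide in capitals. Pdgfra is at chr5:75152001-75152179 and Kit is at chr5:75574737-75574915.
Pdgfra: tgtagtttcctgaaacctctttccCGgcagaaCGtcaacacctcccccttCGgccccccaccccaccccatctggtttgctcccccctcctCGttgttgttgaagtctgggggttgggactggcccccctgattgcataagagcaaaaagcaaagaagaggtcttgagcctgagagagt
Kit: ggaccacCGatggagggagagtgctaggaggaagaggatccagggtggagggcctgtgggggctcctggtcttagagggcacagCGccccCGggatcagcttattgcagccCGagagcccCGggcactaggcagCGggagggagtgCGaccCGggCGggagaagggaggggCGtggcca

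The Kit stretch held 10 CG dinucleotides in its 179 bases and the Pdgfra stretch held 4. The median over 32851 RefSeq promoter entries, cut to the same length, was 3, and 25.1% of them held as many as Kit and 50.0% as many as Pdgfra. The letters GGGCGG, a GC box searched on both strands, occurred once upstream of Kit and were not found upstream of Pdgfra, and 20.9% of all entries held them. TATAAA, also searched on both strands and free of overlap with the GC box letters, was found in neither and in 8.34% of all entries. Of the 10 genes, 7 had an entry, and among them Pdgfa held the most CG dinucleotides, with 23 upstream of one of its annotated starts and 16 upstream of the other. Placed by RefSeq starts, the Pdgfa stretches lie wholly and the Kitl stretch partly inside the gene spans of the GENCODE annotation. A second entry of Kit held 11, Kitl held 15, Csf1 held 6, Pdgfc held 2 and Pdgfd held 1. These are counts of letters in the reference and not measurements of the cells.

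Pdgfrb (GRCm38, chromosome 18, 61045150 to 61085061, plus strand) encodes PDGFRβ, the receptor of the B and D chains and a marker of fibroblasts and pericytes. It had 97.4, 122, 123 and 127 CPM in the MEF libraries and 2.28, 3.07 and 1.89 CPM in the mESC libraries. The MEF library of 11.4 M counts was the lowest of its cell type and still stood far above the mESC libraries. The mean fell from 117 ± 13.5 CPM (SD, n = 4) to 2.41 ± 0.601 CPM (SD, n = 3), which is 2.05% of the MEF level. This was a log2 fold change of -5.60 (standard error 0.237, edgeR adjusted p = 3.92e-08). Pdgfrb had the smallest spread among MEF libraries of the 10 genes, with a CV of 11.5% beside a median of 26.9% over all tested genes. The 7 pericyte and smooth muscle markers summed to 245.5, 286.9, 194.5 and 175.9 CPM in the MEF libraries. In the mESC libraries they summed to 39.6, 23.9 and 22.7 CPM. Of the 7, 6 were lower in mESCs, as were 25.0% of all tested genes. Among the MEF libraries, those of 9.18 and 6.53 M counts had the lowest marker sums and the highest Pdgfrb levels. The part of pericytes and smooth muscle cells in the Pdgfrb difference was not tested.

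Csf1r (GRCm38, chromosome 18, 61100598 to 61132149, plus strand), the receptor of CSF1 and of interleukin 34, was the receptor gene that was not called. It had 22.6, 6.40, 17.3 and 12.9 CPM in the MEF libraries and 13.1, 9.09 and 14.3 CPM in the mESC libraries. The mESC libraries fell inside the range of the MEF libraries, which differed among themselves by 3.54 times from the lowest to the highest. The log2 fold change was -0.29, with 0.386 as its standard error and a 95% interval from -1.15 to 0.56 (edgeR adjusted p = 0.573). A difference within that interval was not excluded. Its exons share 873 of 5774 bases with those of Hmgxb3, an antisense gene whose end overlaps the end of Csf1r. Hmgxb3 itself had 47, 27, 28 and 38 counts in MEFs and 116, 128 and 109 in mESCs. The strand setting of the counting is not given in the sources used here, so reads in the shared bases cannot be told apart, and the level of Csf1r is uncertain in both cell types.

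Macrophage markers were set beside Csf1r, as macrophages are the cells best known for it. Their 17 genes summed to 27.6, 24.1, 88.0 and 98.1 CPM in the MEF libraries and to 72.2, 79.2 and 80.5 CPM in the mESC libraries. In mESCs most of the sum was Laptm5, with a mean of 58.5 CPM, and Cd68, with a mean of 9.83 CPM. By edgeR, 2 of the 10 tested markers were higher in mESCs, Laptm5 and Cd68, and 4 were lower, C1qb, C1qc, Lyz2 and Cd53. Lyz2 had the highest MEF mean of the list, at 20.95 CPM, beside 3.10 CPM in mESCs. Adgre1, the gene of the defining macrophage antigen F4/80, was not tested and was at 0 in all 3 mESC libraries. Its MEF counts were also low, at 3, 10, 0 and 8, with the 0 in the library of 9.18 M counts. Among the 17 markers, 7 did not exceed the floor in any mESC library. The Csf1r levels of the MEF libraries, in the same order, were 22.6, 6.40, 17.3 and 12.9 CPM. Without the 2 MEF libraries with the highest sums, a comparison added after the values were seen, Csf1r again was not called. The part of macrophages in the Csf1r level was not tested. The same pair of libraries was highest among MEFs for Pdgfra, Pdgfrb, Pdgfd and Kitl and lowest for Pdgfa, Kit and Csf1. Without that pair the call of Pdgfa was lost and the calls of the other 6 stayed, with Kitl at -2.75 (edgeR adjusted p = 0.0452).

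Among the PDGF ligands, Pdgfa was higher, Pdgfc and Pdgfd were lower and Pdgfb was not called in mESCs. Pdgfa (GRCm38, chromosome 5, 138976014 to 138997370, minus strand) encodes the A chain, whose dimer binds PDGFRα alone. It had 61.8, 47.3, 36.2 and 28.1 CPM in the MEF libraries and 91.9, 115 and 68.0 CPM in the mESC libraries. The lowest mESC library stood just above the highest MEF library. The mean rose from 43.3 ± 14.6 CPM (SD, n = 4) to 91.6 ± 23.5 CPM (SD, n = 3), 2.11 times as high. On the log2 scale the difference was 1.08, with a standard error of 0.269 (edgeR adjusted p = 0.00702). Without the 2 MEF libraries of 9.18 and 6.53 M counts, in which Pdgfa was lowest and macrophage markers were highest, the log2 fold change was 0.72 (edgeR adjusted p = 0.0521). Its exons share 813 of 3119 bases with the antisense gene 6330403L08Rik, which had at most 16 counts in any library. As with Csf1r, reads in the shared bases cannot be told apart without the strand setting, and the level of Pdgfa is likewise uncertain.

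Pdgfb (GRCm38, chromosome 15, 79995874 to 80014977, minus strand), the gene of the B chain that binds both PDGF receptors, was not called. It had 27, 6, 15 and 14 counts in the MEF libraries, or 2.59, 0.915, 1.80 and 2.23 CPM. In the mESC libraries it had 23, 27 and 25 counts, or 2.49, 3.07 and 2.95 CPM. The groups overlapped, since the MEF library of 11.4 M counts stood above 1 of the mESC libraries. The log2 fold change was 0.58, with 0.480 as its standard error and a 95% interval from -0.49 to 1.64 (edgeR adjusted p = 0.358). No difference was detected at this depth, and one within that interval was not excluded.

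Pdgfc (GRCm38, chromosome 3, 81036416 to 81214040, plus strand) encodes a chain that is secreted in a latent form and binds PDGFRα once a protease has cut it. It had 26.7, 30.9, 34.0 and 17.3 CPM in the MEF libraries and 17.0, 11.7 and 19.2 CPM in the mESC libraries. The MEF library of 6.53 M counts lay within the range of the mESC libraries. The mean went from 27.2 ± 7.26 CPM (SD, n = 4) to 16.0 ± 3.87 CPM (SD, n = 3). On the log2 scale this was -0.77, with a standard error of 0.278 (edgeR adjusted p = 0.0412). This call lay close to the threshold. With 1 library left out at a time, the log2 fold change ran from -0.94 to -0.59. The call was lost without the MEF library of 11.4, 7.31 or 9.18 M counts or the mESC library of 8.19 or 8.06 M counts. In those fits the edgeR adjusted p was between 0.0640 and 0.140. The call was also lost without scaling beyond library size, where the log2 fold change was -0.48 (edgeR adjusted p = 0.169).

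Pdgfd (GRCm38, chromosome 9, 6168584 to 6378850, plus strand), the other latent chain, which binds PDGFRβ, was close to undetected in mESCs. It had 98, 97, 171 and 94 counts in the MEF libraries, or 9.40, 14.8, 20.5 and 14.9 CPM. Each mESC library held 2 counts, under the floor of 3. The pooled MEF level, from 460 counts, was 64.3 times the pooled mESC level, from 6 counts, with an exact 95% interval of 29.3 to 176 that covers counting error only. The gene passed the test (edgeR adjusted p = 3.13e-06), and its fitted log2 fold change of -5.95 is no bound, since it depends on the small value added to counts this low.

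Both non-PDGF ligands were lower in mESCs. Kitl (GRCm38, chromosome 10, 100015630 to 100100416, plus strand) encodes stem cell factor, the ligand of KIT. It had 19.5, 10.5, 21.5 and 23.5 CPM in the MEF libraries and 4.44, 0 and 2.36 CPM in the mESC libraries. The mESC libraries all stood below the MEF libraries and differed widely among themselves, with 41, 0 and 20 counts. The mESC library of 8.06 M counts held none, which allows up to 0.341 CPM. The mean fell from 18.7 ± 5.73 CPM (SD, n = 4) to 2.27 ± 2.22 CPM (SD, n = 3), which is 12.1% of the MEF level. The fitted log2 fold change was -3.03, with 0.759 as its standard error (edgeR adjusted p = 0.00704). It was -2.46 without the mESC library at 0 and -3.99 without the mESC library of 8.19 M counts.

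Csf1 (GRCm38, chromosome 3, 107741048 to 107760469, minus strand) encodes the macrophage growth factor that fibroblasts and other stromal cells secrete. It had 75.8, 82.2, 44.7 and 46.4 CPM in the MEF libraries and 0.434, 3.64 and 2.01 CPM in the mESC libraries, from 4, 32 and 17 counts. The groups stood far apart, and the mESC libraries differed by 8.39 times from the lowest to the highest. The mean fell from 62.3 ± 19.5 CPM (SD, n = 4) to 2.02 ± 1.60 CPM (SD, n = 3), which is 3.25% of the MEF level. This was a log2 fold change of -4.94 (standard error 0.525, edgeR adjusted p = 2.46e-05). Without the mESC library of 8.06 M counts it was -5.68, and without the one of 8.19 M counts it was -4.46.

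The spread within a cell type differed between the genes. In mESCs, counts of Pdgfra, Pdgfb, Pdgfrb and Kit varied about as counting error alone would, with chi-square values per degree of freedom of 0.349, 0.295, 1.30 and 1.38. Pdgfa in mESCs had 51.9 and Kitl had 19.3 on the same scale. In MEFs the values ran from 2.04 for Pdgfb, which had 62 counts over the 4 libraries, to 49.2 for Pdgfra. The widest CV in MEFs was 46.5% for Csf1r and the widest in mESCs was 98.0% for Kitl.

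The ligand was then set against its receptor within a library for Kitl and Kit, Pdgfa and Pdgfra, and Csf1 and Csf1r. This removes the scaling between libraries. Pdgfb, Pdgfc, Pdgfd and Pdgfrb were not set in a ratio. The measure was the log2 ratio of counts, with 0.5 added to each count, and it is read only between cell types, since the genes differ in length and in how they are captured. For Kitl to Kit it ranged from 0.82 to 2.51 in the MEF libraries and was -2.87, -9.22 and -3.61 in the mESC libraries, the lowest being the library with no Kitl count. The mean difference, mESC minus MEF, was -7.03, and -5.04 without that library. For Pdgfa to Pdgfra the ratio ran from -1.47 to 0.46 in MEFs and from 4.44 to 4.92 in mESCs, a mean difference of 5.27. For Csf1 to Csf1r it ran from 1.37 to 3.67 in MEFs and from -4.75 to -1.31 in mESCs, a mean difference of -5.11, with -4.21 when the mESC library of 8.19 M counts was left out. None of the 3 ratios overlapped between the cell types. For Kitl to Kit and Pdgfa to Pdgfra this follows from the genes themselves, which were each apart between the cell types and in opposite directions, so the ratios are a description with no test.

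**Figure D2:**
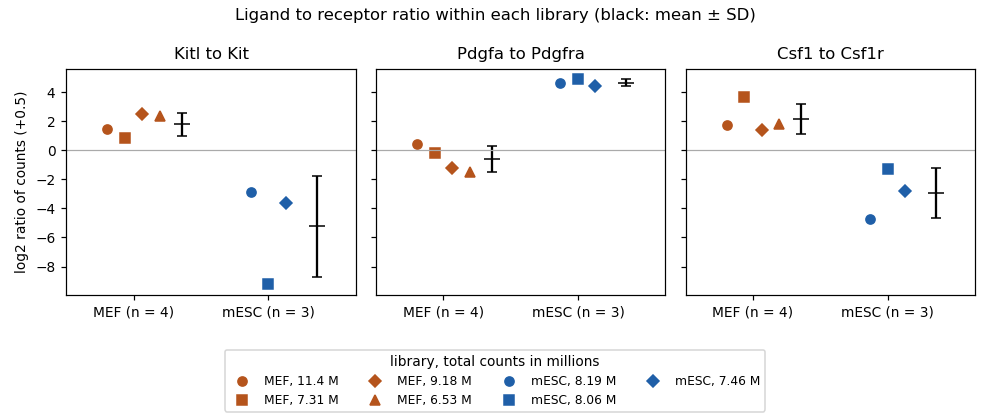
Log2 ratio of ligand counts to receptor counts, with 0.5 added to each (vertical axis), in each of the 4 MEF libraries (brown) and 3 mESC libraries (blue), with the mean ± SD of each cell type in black. The ratio of Pdgfa to Pdgfra is higher in every mESC library, at 4.44 to 4.92, and those of Kitl to Kit and Csf1 to Csf1r are lower in every mESC library.

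Genes related to the 10 were followed next. Of 12 related receptors and ligands, 11 could be tested, with 0 higher and 5 lower in mESCs by edgeR and a median log2 fold change of -1.12. DESeq2 also called 0 higher, and 0 were higher at an unadjusted p under 0.05 in edgeR. The share called was 45.5%, beside 47.9% over all tested genes, so the list was called about as often as the background. Flt1, a receptor of vascular endothelial growth factor (VEGF), was the most changed, with 255, 199, 196 and 172 CPM in the MEF libraries and 3.69, 6.14 and 2.36 CPM in the mESC libraries. On the log2 scale the difference was -5.65, with a standard error of 0.326 (edgeR adjusted p = 3.23e-07). The 7 endothelial markers, genes of the cells best known for Flt1, summed to between 16.4 and 24.6 CPM in MEFs and to between 33.7 and 58.3 CPM in mESCs, with 1 of the 3 tested higher in mESCs. That gene, Pecam1, made up most of the mESC sum, with a mean of 29.9 CPM beside 2.79 CPM in MEFs. Tek and Emcn had log2 fold changes of -0.39 and -0.40 and were not called. Of those not tested, Cdh5 had a lower mean in mESCs, and Tie1, Esam and Cldn5 had higher ones. The part of endothelial cells in the Flt1 difference was not tested. Vegfd, a ligand of the VEGF family, had a log2 fold change of -4.69, and Pdgfrl, a gene related in sequence to the PDGF receptors, had -3.29. Pgf, a ligand of FLT1, had -1.81 and lost its call without the mESC library of 8.19 M counts (edgeR adjusted p = 0.0654), and without the MEF libraries of 9.18 and 6.53 M counts, where it had -1.13 (edgeR adjusted p = 0.184). Without the same pair Pdgfrl had -2.45. Vegfa, the main ligand of endothelial cells, had -1.12.

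The other related genes were not called. Il34, the second ligand of CSF1R, had between 5 and 27 counts in every library and a log2 fold change of -1.06 (standard error 0.621, edgeR adjusted p = 0.189). Flt3l had -0.44, Vegfc had -0.89, Vegfb had 0.18 and Flt4 had -0.13, with standard errors between 0.322 and 0.658. Kdr, which lies beyond Kit on chromosome 5, had -1.70 with a standard error of 0.767 (edgeR adjusted p = 0.0927). Without the mESC library of 7.46 M counts Kdr had -2.64 and passed the test (edgeR adjusted p = 0.0466), as it did without the MEF libraries of 9.18 and 6.53 M counts, with -2.35 (edgeR adjusted p = 0.0402). Flt3, the remaining class III receptor, had between 1 and 10 counts in each library and was not tested.

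**Figure D3:**
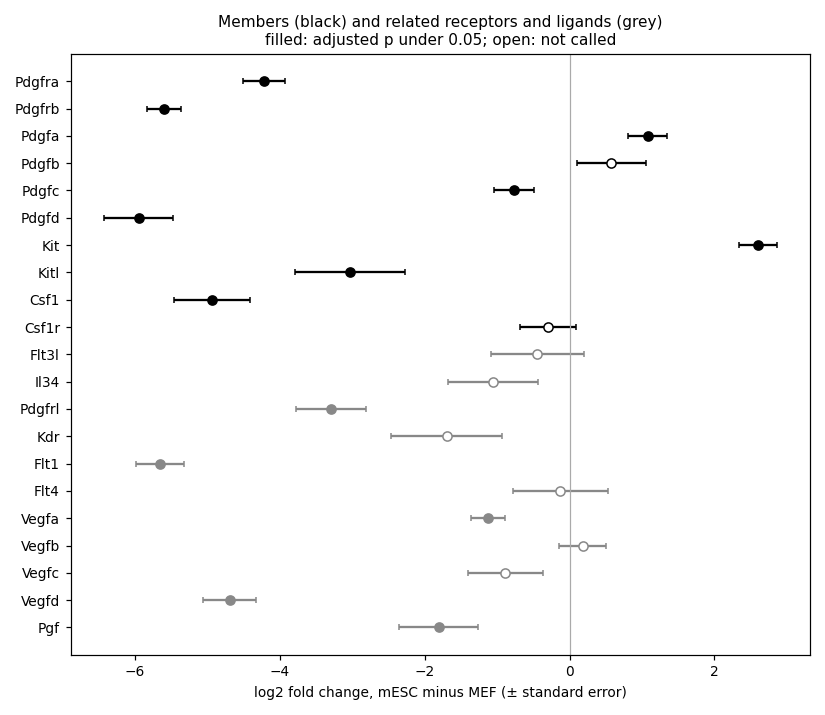
Log2 fold change, mESC minus MEF, with its standard error (horizontal axis) of the 10 genes (black) and of the 11 related receptors and ligands that were tested (grey), with filled points for an adjusted p under 0.05. Kit and Pdgfa are the filled points to the right of 0, and Pdgfd, Flt1 and Pdgfrb lie farthest to the left.

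All 12 genes that process or bind the ligands passed the test, with 2 higher and 10 lower in mESCs and a median log2 fold change of -2.66. Over all tested genes 47.9% were called, 22.8% as higher and 25.0% as lower, and this list was chosen with earlier results known. St14, the gene of matriptase, a membrane protease that can cut the C chain, had 2.78, 0.457, 0.240 and 1.75 CPM in the MEF libraries and 31.5, 24.2 and 23.2 CPM in the mESC libraries. The fitted log2 fold change was 4.26, with 0.564 as its standard error (edgeR adjusted p = 0.000119), and it was 5.05 without the MEF library of 11.4 M counts. Pcsk6, a proprotein convertase, was the other higher gene, with 1.44. Plat, the gene of tissue plasminogen activator, which activates the C chain, had 57.1, 55.8, 58.2 and 62.0 CPM in the MEF libraries and 1.84, 2.39 and 0.590 CPM in the mESC libraries. This was a log2 fold change of -5.16 (standard error 0.355, edgeR adjusted p = 1.08e-06). Nrp1, a co-receptor, had -5.68 with a standard error of 0.272. Plau, the gene of urokinase, which activates the D chain, had -2.50, and Furin had -2.67. Adam17, which sheds membrane-bound stem cell factor and CSF1, had the smallest difference of the list, -0.89.

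Of the 29 adaptors and effectors, 3 were higher, 15 were lower and 11 were not called, and the median log2 fold change was -0.64. The share called was 62.1%, beside 47.9% over all tested genes. The higher genes were Pik3cb, a catalytic subunit of PI3 kinase, with a log2 fold change of 2.18, the adaptor Gab1 with 1.74, and the kinase Yes1 with 0.86. Gab1 had between 18.5 and 24.7 CPM in MEFs and between 65.7 and 75.9 CPM in mESCs, a narrow range in each. Akt1, the kinase downstream of PI3 kinase, was lowest in mESCs relative to MEFs, with 88.2, 142, 89.2 and 114 CPM in MEFs and 13.5, 10.6 and 10.3 CPM in mESCs, and a log2 fold change of -3.23 (standard error 0.234, edgeR adjusted p = 1.57e-06). Gab2 followed with -2.77, and with -3.45 when the mESC library of 8.06 M counts was left out. Hras, a RAS gene, was lower in mESCs, with -0.96.

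The 14 negative regulators gave 13 tested genes, with 3 higher, 6 lower and 4 not called. Their median was -0.49 and the share called was 69.2%, beside 47.9% over all tested genes. Ptpn6, the gene of the phosphatase SHP-1, had 0.576, 0.457, 1.32 and 2.07 CPM in MEFs and 8.78, 17.0 and 18.5 CPM in mESCs, a log2 fold change of 3.76 (standard error 0.511, edgeR adjusted p = 0.000144), which was 4.74 without the MEF libraries of 9.18 and 6.53 M counts. Inpp5d, the gene of the lipid phosphatase SHIP1, had between 2.90 and 4.91 CPM in MEFs and between 26.8 and 36.3 CPM in mESCs, a log2 fold change of 2.96 (standard error 0.266, edgeR adjusted p = 7.47e-06). Both are best known as attenuators of receptors such as KIT in blood cells. Like Kit they were higher in mESCs, as were 22.8% of all tested genes, and a link to Kit was not tested. Dok1, an adaptor that dampens signalling, had -2.48, and Sh2b3, the gene of LNK, had -1.67.

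Among 12 immediate early genes, which growth factors switch on within minutes to hours, 3 were higher, 6 were lower and 3 were not called in mESCs. Their median was -1.42 and the share called was 75.0%, beside 47.9% over all tested genes. Fos had 34.6, 31.1, 83.9 and 80.8 CPM in MEFs and 495, 409 and 366 CPM in mESCs, a log2 fold change of 2.88 (standard error 0.344, edgeR adjusted p = 5.80e-05). Fosb had 2.49 and Ier2 had 0.79. Without the MEF libraries of 9.18 and 6.53 M counts, Fos had 3.65 and Fosb had 3.14. The chemokine gene Ccl2, first found as a gene that PDGF induces in fibroblasts, had 262, 194, 112 and 125 CPM in MEFs and between 4 and 6 counts in each mESC library. On the log2 scale the difference was -8.13, with a standard error of 0.435 (edgeR adjusted p = 1.96e-07). Cxcl1, another such chemokine, had 0, 1 and 8 counts in the mESC libraries and a log2 fold change of -4.89, which was -7.24 without the mESC library of 7.46 M counts that held the 8. Myc, a transcription factor of cell growth, had -2.84, and Egr2 had -1.99.

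**Figure D4:**
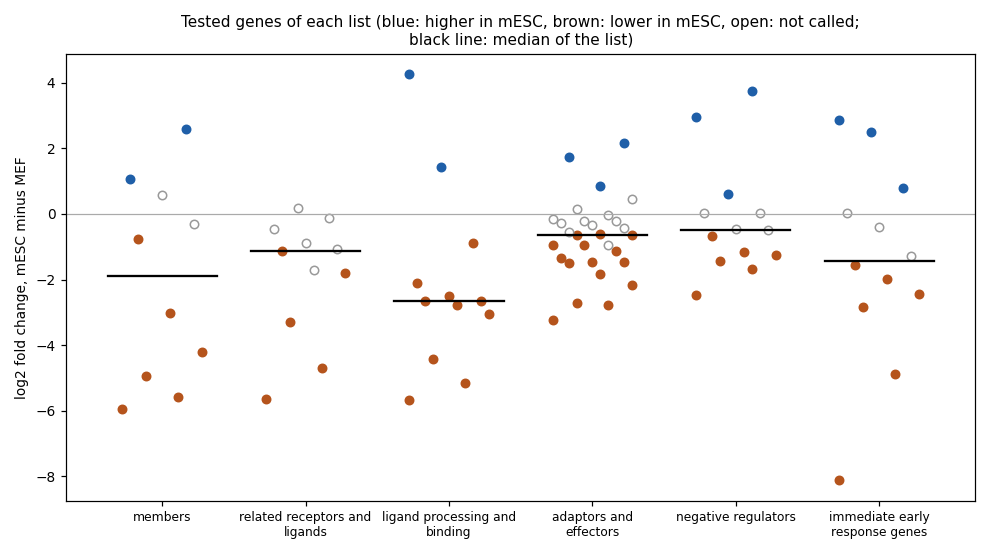
Log2 fold change, mESC minus MEF (vertical axis), of each tested gene of the 10 axis genes and of the 5 lists of related genes, with blue for higher and brown for lower in mESCs, open circles for genes not called, and a black line at the median of each list. The medians run from -2.66 for ligand processing and binding to -0.49 for the negative regulators.

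The chromosomal neighbours of the receptor pairs were also followed. Of 16 neighbours 13 were tested and 6 were called, or 46.2%, close to the 47.9% of all tested genes. No protein-coding gene lies in the 376.7 kb between Pdgfra and Kit, and none in the 15.54 kb between Pdgfrb and Csf1r (GENCODE M21 on GRCm38). Around Pdgfra and Kit, the 4 nearest protein-coding genes on each side gave 3 lower genes, Tmem165 with -0.80, Chic2 with -0.62 and Srd5a3 with -0.56. Fip1l1, Kdr and Clock were not called, and Lnx1 and Gsx2 were not tested, with at most 4 counts in a library. None of these neighbours was higher in mESCs, as Kit was, and none was as much lower as Pdgfra. Without scaling beyond library size, Tmem165 alone of the 3 kept its call, and Chic2 and Srd5a3 also lost theirs when single libraries were left out, Chic2 without any of 5 of the 7 and Srd5a3 without any of 6 of the 7.

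Around Pdgfrb and Csf1r, Arsi had -2.07, Cdx1 had 2.29 and Hmgxb3, the antisense neighbour of Csf1r, had 1.57. Hmgxb3 had a standard error of 0.298 (edgeR adjusted p = 0.00135) and kept its call under every alternative tried but is subject to the shared exons with Csf1r. Cdx1 had between 1 and 7 counts in the MEF libraries and between 14 and 30 in the mESC libraries, and lost its call without the mESC libraries of 8.19 or 8.06 M counts (edgeR adjusted p = 0.0593 and 0.0542). Arsi had between 13 and 67 counts in MEFs and between 3 and 16 in mESCs, and lost its call when any of 4 of the 7 libraries was left out, with edgeR adjusted p up to 0.120. It was -2.82 without the mESC library of 7.46 M counts. Camk2a, Slc26a2, Pde6a and Ppargc1b were not called, and Slc6a7 was not tested.

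**Figure D5:**
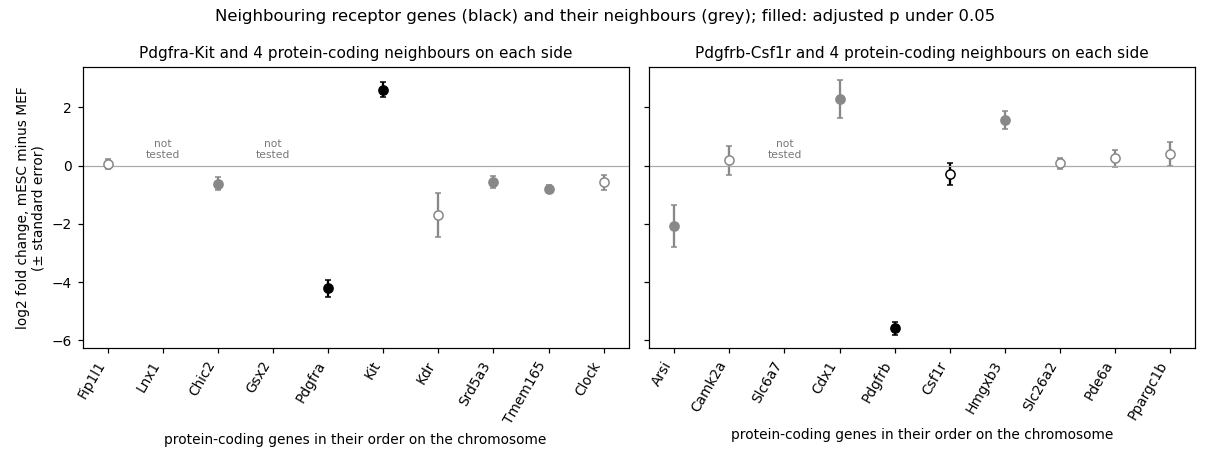
Log2 fold change, mESC minus MEF, with its standard error (vertical axis) of the receptor genes (black) and of the 4 nearest protein-coding genes on each side (grey), in chromosomal order, with filled points for an adjusted p under 0.05. Pdgfra and Kit are the points farthest from 0 in the left panel, on opposite sides, and Pdgfrb is the lowest in the right panel.

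The genes most like each of the 10 were those with the highest correlation of log2CPM over the 7 libraries. The 7 libraries fall into 2 cell types, which every gene compared shares, so the correlation is given as a description. For Pdgfra these were Col6a2 (r = 0.9992), Hmcn1 and Apbb1, and for Pdgfrb Cavin3 (r = 0.9997), Hoxa9 and Pcdh19. Kit was closest to Nlrp12 (r = 0.9986), Zfp981 and Dpy30, and Kitl to Ednrb (r = 0.9932), Sowahc and Ptgr1. Csf1 was closest to Riok1 (r = 0.9943), Meox1 and Tgfb2, and Pdgfd to A130014A01Rik (r = 0.9997), P3h1 and Fstl1. The closest gene to Pdgfa was Hoxc13 (r = 0.9909), to Pdgfb Zfp593 (r = 0.9855), to Pdgfc Hyal2 (r = 0.9825) and to Csf1r Grap2 (r = 0.9752), the lowest of the 10 closest values.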

How the data were processed

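RNA was measured in 4 MEF and 3 mESC samples with 3′-biased libraries that carry molecular identifiers of 10 bases. The authors demultiplexed and trimmed the reads, mapped them with STAR to mm10 (version 2.4.2a in the submitters' processing notes, and another version in the paper), collapsed reads of the same identifier with Je and counted uniquely mapped exonic reads with featureCounts. Which annotation release was counted, and with which strand setting, is not given in the sources used here. The extraction text of the labels describes blood stem cells and was not used to describe these samples. The authors deposited whole-number counts per gene without normalization, and every column of the table was used. Within each cell type all column names start with the same cell type and number, so they do not settle the sample number. Libraries are therefore named by their totals, from 6.53 to 11.4 M counts. The floor of detection was set at 3 counts in a library and covers counting error only.

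The counts were tested by the quasi-likelihood method of edgeR 4.0.16 in R 4.3.3 (limma 3.58.1), after TMM scaling and filterByExpr, with no covariates, on all 7 libraries, and Benjamini-Hochberg adjustment over the 16580 genes tested. No test for the RNA-seq counts is named in the paper. The 10 genes and all lists were chosen with earlier results of these data known. Named were the 10 genes, every tested related receptor and ligand, the chromosomal neighbours, and of each other list the called genes at either end of the log2 fold changes, 2 at each end. Hras, Yes1, Plau, Furin, Adam17, Ier2, Myc and Egr2 were named after their values were seen. Of the marker lists, summed levels are given, and single markers were named after their values were seen. The fits were tested on simulated counts, where edgeR recovered 135 of 200 genes that had been given a change of 2 on the log2 scale, out of 16056, with 6 false calls, and made 0 calls among 16060 when none was changed. Alternatives were DESeq2 1.42.0, its size factors within edgeR, library size as the only scaling, other filters, a test against a fold change of 2, other pseudocounts and leaving out each library. Leaving out the 2 MEF libraries with the highest macrophage marker sums was added after seeing the data. log2CPM used a prior count of 2. Promoter sequences are from RefSeq, GRCm38.p6, and coordinates from GENCODE M21 on GRCm38. An exact permutation test had been planned for the ligand to receptor ratios and is not given, since the separation of the genes fixes its outcome for 2 of the 3 ratios. Chromatin files were not analysed here.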

Additional observations from a re-analysis of the deposited data

Results flagged for a closer look

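In 4 genes, 1 MEF library stood apart from the other 3 by Dixon's criterion at the 95% level (log2CPM with a prior count of 2). The 102 genes searched would give about 5.1 such cases by chance, at 1 in 20. Pdgfrb was low in the MEF library of 11.4 M counts, with 6.61 beside 6.93 to 6.99 in the others. Adam17, the sheddase of stem cell factor and CSF1, was low in the MEF library of 6.53 M counts, with 6.0 beside 6.38 to 6.45. Cbl, a ubiquitin ligase of active receptors, was low in the same library, with 5.58 beside 6.14 to 6.23. Pde6a, a neighbour of Csf1r, was high in the MEF library of 9.18 M counts, with 4.12 beside 3.28 to 3.34.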

How the results depend on the processing

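Over 57 named genes, 732 of 793 values under the alternatives kept their direction and side of the threshold, 48 lost the call, 3 gained it and 10 changed sign. Without scaling beyond library size the median log2 fold change over all tested genes moved from 0.04 to 0.32, the calls over all genes turned from 3785 higher and 4153 lower in mESCs to 5180 and 3345, and the neighbouring genes called lower went from 4 to 1 beside 2 higher. Testing against a fold change of 2 left 1 axis gene higher (Kit), 3 related receptors and ligands lower, 1 processing gene higher, 8 adaptors lower, 3 negative regulators lower, and 1 neighbour higher and 0 lower. Without the 2 MEF libraries of 9.18 and 6.53 M counts, 1 axis gene was higher, and 1 neighbour was higher and 2 were lower. Leaving out 1 library at a time gave 1 to 2 higher and 1 to 3 lower neighbours, and 5 to 6 lower axis genes. The sign turned only for genes that were not called, with Flt4 at 0.17 without scaling and from -0.52 to 0.20 with 1 library left out, Vegfb from -0.031 to 0.40, Fip1l1 from -0.085 to 0.16 (-0.0099 without both MEF libraries), Camk2a from -0.086 to 0.51 and Slc26a2 from -0.041 to 0.15. The log2CPM difference of Pdgfd went from -4.97 to -5.65 with a prior count of 0.5, as a group at 2 counts a library must when less is added. With 1 library left out, the ligand to receptor ratios ranged from -8.22 to -5.04 for Kitl to Kit, from 4.98 to 5.62 for Pdgfa to Pdgfra and from -5.93 to -4.21 for Csf1 to Csf1r, as values with no test. No paired analysis was possible because the columns do not carry the samples' numbers. Depth limits what can be said of Pdgfd, Kitl and Csf1 in mESCs and of Pdgfb in both cell types.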
